A study of Homo sapiens with 13 samples.

Results

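The integrins and leukocyte adhesion molecules were examined in 13 untreated acute lymphoblastic leukemia (ALL) cell lines, each measured once on an HG-U133 Plus 2.0 array. The 35 genes were listed by family and not by measured value, and each was read from the probe set annotated to that gene alone that had the highest mean over the 13 arrays. Of the 35 genes, 34 were measured among 18568 genes in all. ITGB6, a beta subunit of epithelial cells, has only probe sets annotated together with another gene and was not analysed here. The 6 B-cell precursor lines (BCP-ALL) were 697, Nalm6, REH, RS4;11, written RS4,11 in the labels, Nalm16 and Nalm30. The 7 T-lineage lines (T-ALL) were Jurkat, Molt4, CCRF-CEM, HPB-ALL, ALL-SIL, TALL-1 and P12-ICHIKAWA. No line received a drug, and all grew in RPMI-1640 medium with 10% fetal bovine serum. Each line was measured on 1 array, so the spread within a lineage is that between lines.

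Integrins are cell surface receptors made of 1 alpha and 1 beta subunit, and neither subunit reaches the surface well without its partner. The pairing decides the ligand. Leukocytes use the beta-2 integrins, such as LFA-1 (ITGAL with ITGB2), to bind the ICAM proteins on other cells, and the alpha-4 integrins to bind VCAM1 on stroma and endothelium. Selectins start the rolling of leukocytes along vessels by binding sugars on carriers such as PSGL-1, the product of SELPLG. In ALL these receptors are known for holding leukemia cells to bone marrow stroma, thymus and endothelium.

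The authors' values are log2 of a signal to which 16 was added, so the lowest possible value is 4, and a value of 5 or less is called near the floor. The array medians ran from 5.05 to 5.37, so a gene just above 5 sat in the middle of its array. Differences are in log2 units of this scale, which shrinks the change of a gene near the floor. A flat probe set above 5 may be probe background, since no detection call was given, and levels of different probe sets were not set against each other. P12-ICHIKAWA and TALL-1 were almost the same array (r = 0.993 over all probe sets), and the 34 genes differed between them by a median of 0.15 and at most by 0.53. Whether they are separate lines was not tested. They count as 2 of the 7 T-ALL lines as labelled, and with them averaged the number of genes that differ between the lineages fell from 958 to 610. Nalm16 and Nalm30 were also close (r = 0.959), with a median difference of 0.32 and a largest of 1.24. Of the lineage markers, 8 of 9 B-lineage genes were higher in BCP-ALL and 10 of 11 T-lineage genes were higher in T-ALL. None of the 11 myeloid, megakaryocyte, endothelial, fibroblast and epithelial markers that could be tested differed between the lineages by limma, with 0 at an unadjusted p under 0.05 and 0 by the exact permutation test. The mean over the 9 measured myeloid markers ran from 4.98 to 5.77 in BCP-ALL and from 4.90 to 5.07 in T-ALL, with ELANE, AZU1, S100A8 and FCN1 near the floor in every line. The mean over 8 endothelial markers ran from 4.51 to 4.88 and from 4.46 to 4.71, with CDH5, TEK, CLDN5 and EMCN near the floor in every line. The myeloid gene MPO reached 12.1 in REH and at most 5.5 in the other lines, and LYZ reached 11.2 in Nalm6 and at most 7.90 in the others.

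Of the 34 genes, 19 (Nalm30) to 24 (RS4;11) were above 5 in a line. At a limit of 6, which leaves out most flat probe sets, 9 (Molt4) to 15 (P12-ICHIKAWA) were. In all 13 lines 10 genes were above 5 on the probe set used, namely ITGA4, ITGA11, ITGAE, ITGAX, ITGB1, ITGB2, ICAM2, ICAM5, PECAM1 and CD58. Some of these were near the floor on another probe set, such as ITGA11 in all 13 lines, ITGAX in 10, PECAM1 in 7 and ITGA4 in 2. For PECAM1 these included every BCP-ALL line, and for ITGA4 they were Nalm16 and Nalm30. Another 4 were near the floor in every line, namely the collagen and laminin receptor subunits ITGA1 and ITGA3, the endothelial ligand VCAM1 and P-selectin (SELP). The other 20 were above 5 in some lines and near the floor in others. Between the lowest and the highest line, 24 genes differed by over 1 log2 unit, 17 by over 2 and 6 by over 4. Those 6 were ITGA8, PECAM1, ITGAL, ICAM3, ITGA4 and ITGA6.

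**Figure D1:**
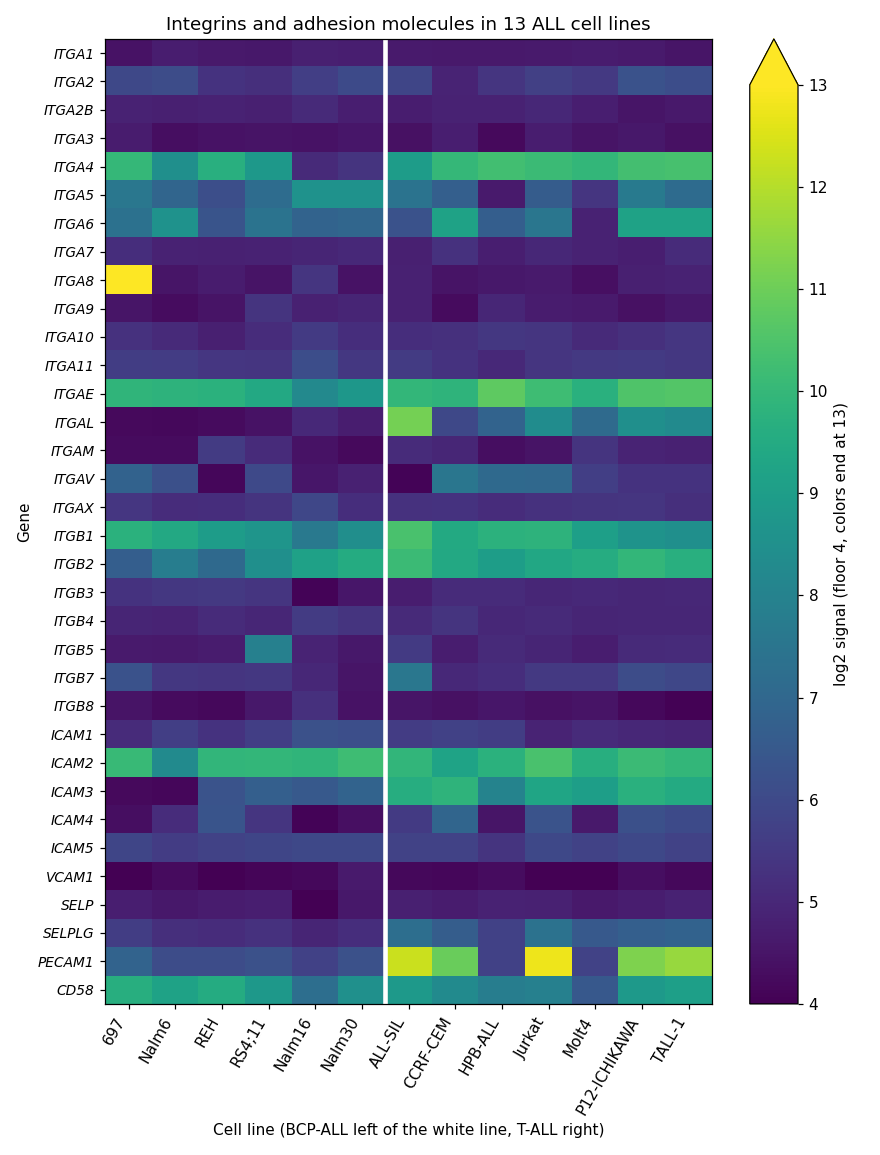
Heat map of the log2 signal of the 34 measured genes (rows) in the 13 cell lines (columns, 6 BCP-ALL left of the white line and 7 T-ALL right), from the floor of 4 to 13. ITGA8 in 697 (14.58) is the highest value, ITGAL and ICAM3 are brighter in all T-ALL lines than in any BCP-ALL line, and PECAM1 is bright in 5 of the 7 T-ALL lines.

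The promoters of 3 genes with wide ranges are shown, ICAM3 for its lineage difference, ITGA4 for its low level in 2 lines and ITGA8 for its level in a single line. They run from 250 bases before to 50 bases after the RefSeq start on GRCh38.p14. Capitals mark matches, on either strand, to the ETS core GGAA (or TTCC), the E-box CAGCTG, or the SP1 motif GGGCGG (or CCGCCC). ICAM3 lies at chr19:10339575-10339874 on the minus strand, where the first of 3 listed starts was taken, ITGA4 at chr2:181457136-181457435 on the plus strand and ITGA8 at chr10:15719873-15720172 on the minus strand.
ICAM3 promoter: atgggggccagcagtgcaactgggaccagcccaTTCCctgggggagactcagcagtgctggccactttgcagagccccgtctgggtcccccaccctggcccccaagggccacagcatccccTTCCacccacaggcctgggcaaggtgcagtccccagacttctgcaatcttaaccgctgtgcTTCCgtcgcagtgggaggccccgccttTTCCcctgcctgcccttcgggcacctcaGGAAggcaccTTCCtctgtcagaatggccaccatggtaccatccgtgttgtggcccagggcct
ITGA4 promoter: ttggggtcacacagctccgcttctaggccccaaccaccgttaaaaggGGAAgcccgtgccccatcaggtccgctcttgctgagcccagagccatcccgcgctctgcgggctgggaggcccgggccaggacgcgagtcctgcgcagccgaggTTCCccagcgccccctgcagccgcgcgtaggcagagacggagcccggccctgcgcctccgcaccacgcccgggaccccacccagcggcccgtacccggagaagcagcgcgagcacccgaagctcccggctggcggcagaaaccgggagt
ITGA8 promoter: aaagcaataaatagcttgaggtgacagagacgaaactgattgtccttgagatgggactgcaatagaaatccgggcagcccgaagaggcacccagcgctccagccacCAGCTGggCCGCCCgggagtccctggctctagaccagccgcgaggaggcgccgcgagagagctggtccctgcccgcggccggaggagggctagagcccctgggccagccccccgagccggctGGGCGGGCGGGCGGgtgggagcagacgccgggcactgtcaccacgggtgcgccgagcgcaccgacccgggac

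The ICAM3 window held 6 ETS cores and the ITGA4 window 2, but this short word was present in 95.5% of 27305 promoters of the same length and in 22 of the 24 adhesion genes with a promoter in the table. The ITGA8 window held no ETS core, 1 E-box and 4 SP1 motifs, of which 3 overlapped between 22 and 9 bases before the start. The E-box was present in 17.7% of all promoters and in 4 of the 24, and the SP1 motif in 44.6% and in 11. The RUNX motif TGTGGT (13.1% of all promoters) was in 3 of the 24, and the PBX motif TGATTGAT (0.535%) in none, also counting both strands. The motifs were chosen after the expression values were known, and a match describes letters only. The promoters of ITGA3, ITGA7, ITGA9, ITGAL, ITGAX, ITGB2, ITGB3, ITGB4, ICAM2, SELPLG and PECAM1 are not shown or counted.

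To ask how the repertoire differed between lineages, the difference was tested by limma over 12560 genes. Of 23 adhesion genes tested, 3 were higher in T-ALL (ITGAL, ICAM3 and SELPLG), beside 3.96% of all genes tested, and 0 were higher in BCP-ALL, beside 3.67%. Another 20 did not pass. At an unadjusted p under 0.05 there were 7 of the 23 (3173 of all 12560), all higher in T-ALL, and the exact permutation test with the same adjustment also called 3 higher in T-ALL and 0 in BCP-ALL. With no filter on low values, the same count of 3 of 34 was higher in T-ALL. The median difference was 0.31 over the 23 genes and 0.03 over all genes tested. The groups did not overlap for 3 of the 34 genes, beside 2.63% of all genes, and these were again ITGAL, ICAM3 and SELPLG. They are an integrin subunit, an integrin ligand and a selectin ligand. The 11 measured genes that the filter removed (ITGA1, ITGA2B, ITGA3, ITGA7, ITGA8, ITGA9, ITGAM, ITGB5, ITGB8, VCAM1 and SELP) were above their array's median in fewer than 3 lines.

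**Figure D2:**
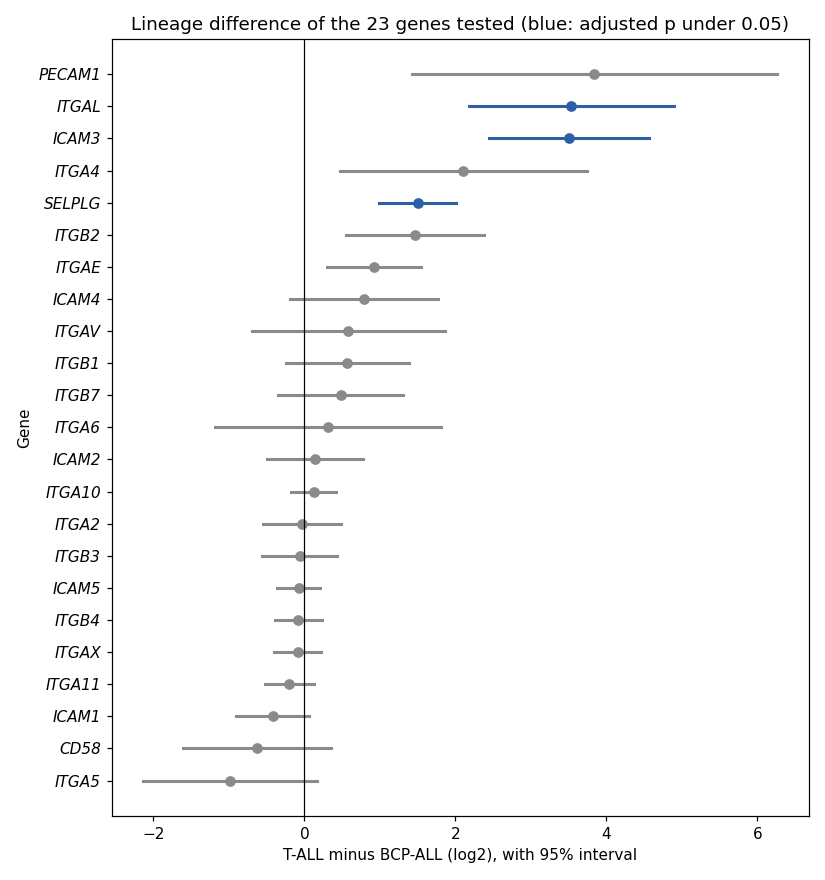
Difference in log2 signal between T-ALL and BCP-ALL (dots) with its 95% interval (lines) for the 23 genes tested by limma, positive when higher in T-ALL. Blue marks the 3 genes with an adjusted p under 0.05, and PECAM1 has the widest interval, from 1.43 to 6.26.

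ITGAL, the alpha subunit of LFA-1, was 4.21, 4.35 and 5.04 (lowest, median and highest line) in BCP-ALL and 5.95, 8.31 and 11.1 in T-ALL. No BCP-ALL line was above its array's median, 5 of the 6 were near the floor, and the gene passed the filter through the T-ALL lines alone. The highest line was ALL-SIL and the next P12-ICHIKAWA at 8.47. The means were 4.48 ± 0.34 (SD, n = 6) and 8.02 ± 1.65 (SD, n = 7), a difference of 3.54 (SE 0.63, limma adjusted p = 0.00371). A second ITGAL probe set gave 2.72. With P12-ICHIKAWA and TALL-1 averaged to 1 line, limma's adjusted p was 0.0103.

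ITGB2, the beta subunit of LFA-1 and of the other leukocyte integrins, was 6.67, 8.15 and 9.55 in BCP-ALL and 9.0, 9.56 and 10.1 in T-ALL. Nalm16 (9.17) and Nalm30 (9.55) lay within the T-ALL range, and the other 4 BCP-ALL lines lay below it. The difference of 1.47 (SE 0.43) did not pass, with a limma adjusted p of 0.0525. Without Nalm16 and Nalm30, a setting chosen after seeing the data, it was 2.08 (limma adjusted p = 0.0035). It also passed with the mean of the 3 ITGB2 probe sets, at 1.26 (limma adjusted p = 0.0148).

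Both LFA-1 subunits were above 5 in all 7 T-ALL lines and in 1 BCP-ALL line, Nalm16, where ITGAL was 5.04. Above 6 they met in 6 T-ALL lines and no BCP-ALL line, as CCRF-CEM had ITGAL at 5.95. Over the 7 T-ALL lines Pearson's r between the subunits was 0.773 (exact permutation p = 0.0435, rho = 0.714, exact p = 0.0881) and 0.699 without ALL-SIL and CCRF-CEM. With P12-ICHIKAWA and TALL-1 averaged, r was 0.789 over 6 T-ALL lines (exact permutation p = 0.0667). It did not pass adjustment over the 26 relations computed (adjusted p = 0.188 by exact permutation). In BCP-ALL no r is given, since ITGAL was near the floor in 5 of the 6 lines, where values have no order.

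**Figure D3:**
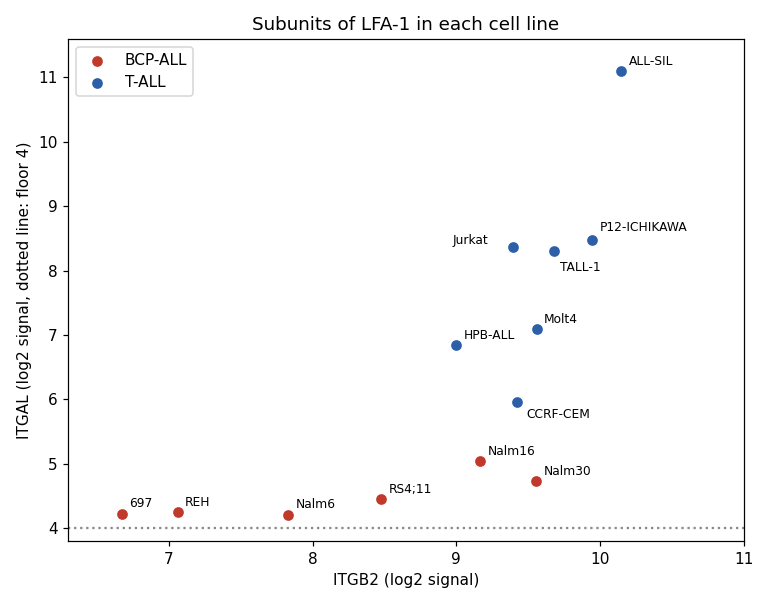
ITGAL against ITGB2, the 2 subunits of LFA-1, in log2 signal, with 1 point per cell line, 6 BCP-ALL in red and 7 T-ALL in blue. All BCP-ALL lines lie at or below 5.04 for ITGAL while ITGB2 runs from 6.67 to 9.55, and ALL-SIL is highest for both subunits.

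The partners of ITGB2 in the myeloid integrins gave low values. ITGAM, the alpha subunit of Mac-1, ran from 4.22 to 5.57, with REH highest, the line that also had MPO at 12.1. A second ITGAM probe set was near the floor in all 13 lines and did not put REH highest (4.52, against 4.79 in Jurkat). Whether ITGAM and MPO belong together was not tested. ITGAX, the subunit CD11c, was flat, from 5.14 to 5.92, and its difference was -0.09 (95% interval -0.40 to 0.22, limma adjusted p = 0.738).

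ITGA4, the alpha subunit of the VCAM1 and fibronectin receptor VLA-4, was 5.08, 8.64 and 10.0 in BCP-ALL and 8.97, 10.1 and 10.4 in T-ALL. The 2 lowest lines were Nalm16 (5.08) and Nalm30 (5.34), and the next was Nalm6 at 8.50. The other 2 ITGA4 probe sets gave differences of the same sign, and the 3 ran from 1.98 to 2.16. The difference of 2.11 (SE 0.76) did not pass (limma adjusted p = 0.108). Without Nalm16 and Nalm30 it was 0.76 (limma adjusted p = 0.246), and with both close pairs averaged 1.51 (0.313). Its partner ITGB1, shared by most alpha subunits, ran from 7.63 in Nalm16 to 10.4 in ALL-SIL, with a lineage difference of 0.57 (95% interval -0.24 to 1.38, limma adjusted p = 0.353). Both VLA-4 subunits were therefore above 6 in all 7 T-ALL lines and in 4 BCP-ALL lines.

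ITGA4 and ITGB1 gave r = 0.84 over the 6 BCP-ALL lines (exact permutation p = 0.0306, rho = 0.829, exact p = 0.0583), which rested on Nalm16 and Nalm30, as r was 0.387 without them. Over the 7 T-ALL lines r was -0.718 (exact permutation p = 0.0421, rho = -0.679, exact p = 0.11) and -0.133 without ALL-SIL and TALL-1. With P12-ICHIKAWA and TALL-1 averaged, r was -0.686 over 6 T-ALL lines (exact permutation p = 0.157). Neither the relation over the 6 BCP-ALL lines nor that over the 7 T-ALL lines passed adjustment (0.188 by exact permutation for both).

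ITGA5, the alpha subunit of the fibronectin receptor, was high in the pair of lines that was low for ITGA4. It was highest in Nalm30 (8.60) and Nalm16 (8.58), ran from 6.16 to 7.57 in the other 4 BCP-ALL lines, and was near the floor in HPB-ALL (4.64). The group means were 7.51 ± 0.96 (SD, n = 6) in BCP-ALL and 6.52 ± 1.11 (SD, n = 7) in T-ALL, a difference of -0.99 (95% interval -2.13 to 0.16, limma adjusted p = 0.261). ITGA6, a laminin receptor subunit, ran from 4.88 in Molt4 to 9.20 in TALL-1 and P12-ICHIKAWA, with CCRF-CEM at 9.19, and its lineage difference was 0.31 (95% interval -1.18 to 1.81). With ITGB1, both ITGA5 and ITGA6 formed a pair above 5 in 12 of 13 lines, all but HPB-ALL for ITGA5 and all but Molt4 for ITGA6.

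ITGAE, the subunit CD103 that binds E-cadherin with ITGB7, was 8.25, 9.59 and 9.87 in BCP-ALL and 9.71, 10.2 and 10.8 in T-ALL. Nalm16 (8.25) and Nalm30 (8.76) were again the lowest lines and HPB-ALL was the highest. The difference of 0.92 (SE 0.29) did not pass (limma adjusted p = 0.0705), and was 0.52 with Nalm16 and Nalm30 left out. ITGB7, which pairs with ITGAE and with ITGA4 for homing to the gut, was highest in ALL-SIL (7.56), followed by 697 (6.25), and ran from 4.53 to 6.08 elsewhere.

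ITGAV, which joins several beta subunits to bind RGD ligands such as vitronectin, ran from 4.10 in ALL-SIL and 4.15 in REH to 7.54 in CCRF-CEM, with no lineage order (difference 0.58, 95% interval -0.70 to 1.86). Of its partners, ITGB3 ran from 4.08 in Nalm16 to 5.49 in REH, and ITGB8 stayed between 4.05 and 5.24. ITGB5 was 7.91 in RS4;11 and at most 5.54 in the other lines, and another of its 4 probe sets read 6.38 there and at most 4.89 elsewhere. The remaining ITGB5 probe sets were near the floor in all 13 lines, at 4.80 and 4.21 in RS4;11. The platelet pair ITGA2B and ITGB3 was above 5 together in no line. ITGB4, the hemidesmosome subunit, was flat, from 4.90 to 5.56.

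ITGA8, which with ITGB1 binds nephronectin and is known from kidney and smooth muscle, was 14.58 in 697 and at most 5.38 in the other 12 lines. In 697 another ITGA8 probe set read 9.81, against at most 4.46 elsewhere, and another 6.14, against at most 4.28. The last of the 4 read 4.15 in 697 and at most 4.29 elsewhere. ITGA9, another ITGB1 partner, was highest in RS4;11 (5.35), where a second of its 4 probe sets read 6.55 and at most 4.46 in the other lines. The collagen receptor subunits ITGA2 (4.88 to 6.27), ITGA10 (4.79 to 5.51) and ITGA11 (5.05 to 6.12) had lineage differences whose 95% intervals held 0. The other ITGA2 probe set read 5.66 in ALL-SIL and was near the floor in the other 12 lines, at most 4.83. ITGA7, a laminin receptor subunit, ran from 4.75 to 5.29.

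Of 22 measured alpha and beta pairs, 3 had both subunits above 5 in all 13 lines, namely ITGA4 with ITGB1, ITGA11 with ITGB1 and ITGAX with ITGB2. All 3 rested on the probe set used. The other ITGA11 probe set was near the floor in all 13 lines and the other ITGAX one in 10. One other ITGA4 probe set read 4.65 in Nalm16 and 4.27 in Nalm30, and the last read 4.21 in Nalm16. Another 4 met in no line, ITGA1 and ITGA3 with ITGB1, ITGA2B with ITGB3 and ITGAV with ITGB8. A line held 9 (Nalm30) to 14 (RS4;11 and TALL-1) pairs above 5, and 2 (Molt4) to 7 (697 and P12-ICHIKAWA) above 6. Over 13 pairs and both lineages, 6 of 26 relations had an exact permutation p under 0.05 by Pearson's r, 1 by rho and 0 after adjustment. Some had a subunit near the floor, among them ITGAL with ITGB2 in BCP-ALL, which is counted here although its r is not given. Of the 13 pairs, r was positive for 9 in BCP-ALL and 5 in T-ALL.

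ICAM3, a ligand of LFA-1 on resting leukocytes, was 4.16, 6.40 and 6.86 in BCP-ALL and 8.04, 9.51 and 9.85 in T-ALL. The lowest T-ALL line, HPB-ALL, was above every BCP-ALL line, and 697 (4.21) and Nalm6 (4.16) were near the floor. The means were 5.79 ± 1.26 (SD, n = 6) and 9.29 ± 0.61 (SD, n = 7), a difference of 3.50 (SE 0.49, limma adjusted p = 0.000626). With P12-ICHIKAWA and TALL-1 averaged, limma's adjusted p was 0.00216.

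The other ICAM genes did not pass. ICAM1, ICAM4 and ICAM5 are neighbors in that order on chromosome 19, with 3 protein-coding genes between ICAM5 and ICAM3. ICAM1, the inducible ligand of LFA-1, was highest in Nalm16 (6.23) and Nalm30 (6.15) and ran from 4.90 to 5.73 elsewhere, a difference of -0.42 (95% interval -0.91 to 0.06, limma adjusted p = 0.255). ICAM4, the red cell antigen that also binds leukocyte integrins, was highest in CCRF-CEM (6.94) and lowest in Nalm16 (4.09), a difference of 0.79 (95% interval -0.19 to 1.76). ICAM5, known for its expression in neurons, ran only from 5.37 to 5.96. ICAM2, the constitutive LFA-1 ligand, was above 9 in every line but Nalm6 (8.32), with a difference of 0.14 (95% interval -0.49 to 0.77).

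**Figure D4:**
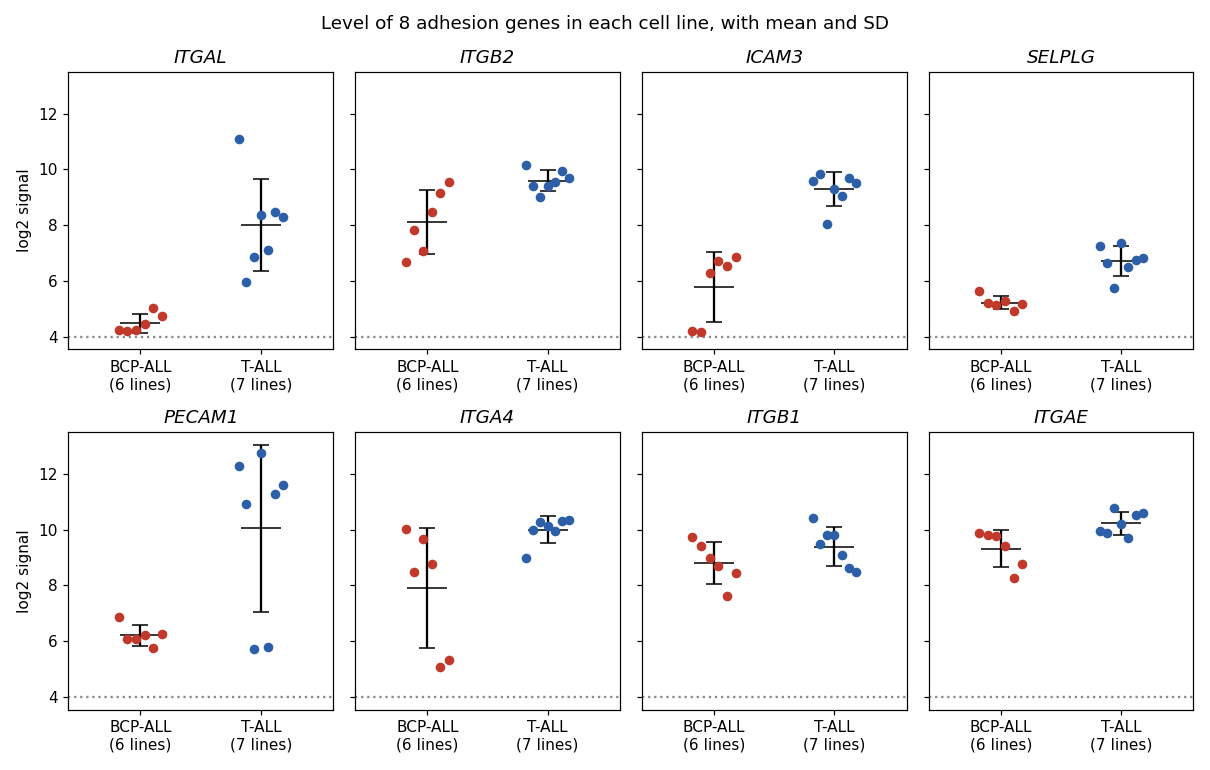
Log2 signal of 8 genes in each cell line, in 6 BCP-ALL lines (red) and 7 T-ALL lines (blue), with the mean and SD as black bars and the floor of 4 dotted. The lineages do not overlap for ITGAL, ICAM3 and SELPLG, 2 BCP-ALL lines are apart for ITGA4 (5.08 and 5.34), and 2 T-ALL lines are apart for PECAM1 (5.74 and 5.78).

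SELPLG, which encodes the main P-selectin ligand of leukocytes, was 4.93, 5.19 and 5.64 in BCP-ALL and 5.75, 6.73 and 7.38 in T-ALL. The lowest T-ALL line, HPB-ALL, was 5.75, just above the highest BCP-ALL line, 697. The difference was 1.5 (SE 0.24, limma adjusted p = 0.00145), and 0.0044 with P12-ICHIKAWA and TALL-1 averaged. Its other probe set read 4.0 to 4.08 in BCP-ALL, at the floor of the scale, and 5.81 to 8.76 in T-ALL, so the lineages did not overlap on either probe set and the size of the difference depended on which was read. Its receptor SELP, stored in platelets and endothelium, was at most 4.86 in any line.

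PECAM1, the homophilic adhesion molecule CD31 of endothelium and leukocytes, was 5.75, 6.16 and 6.87 in BCP-ALL and 5.74, 11.3 and 12.8 in T-ALL. On the probe set used it split the T-ALL lines. Jurkat, ALL-SIL, TALL-1, P12-ICHIKAWA and CCRF-CEM were above 10, while HPB-ALL (5.74) and Molt4 (5.78) lay at the level of the BCP-ALL lines. The difference of 3.84 (SE 1.12) did not pass (limma adjusted p = 0.0539). The call changed with the setting. It passed when either low T-ALL line was left out (limma adjusted p = 0.0113 without HPB-ALL and 0.0137 without Molt4), with array median centring (0.0489), with the probe set of largest SD (0.0498) and with the mean of the 4 probe sets (2.18, 0.0332). It was 0.108 by limma with P12-ICHIKAWA and TALL-1 averaged, 0.178 with Nalm16 and Nalm30 averaged as well, 0.161 with those 2 left out and 0.12 by the exact permutation test. The lowest T-ALL lines on both other responsive probe sets were again HPB-ALL and Molt4, and the last probe set was flat, from 5.77 to 6.35. On both of the responsive ones HPB-ALL stayed within the BCP-ALL range. Molt4 read 5.70 and 5.14 there, above every BCP-ALL line (at most 5.07 and 4.74).

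CD58, the ligand of CD2 on T cells, ran from 6.50 in Molt4 to 9.66 in 697. Within BCP-ALL the lowest line was Nalm16 (7.26). The lineage difference was -0.63 (95% interval -1.61 to 0.35, limma adjusted p = 0.392). VCAM1, the stromal ligand of VLA-4, ran from 4.0 to 4.65 and was near the floor in every line.

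Nalm16 and Nalm30 stood together at one end of the 6 BCP-ALL lines for several genes. On the probe sets used they were the lowest pair of the 6 for ITGA4, ITGAE, ITGB1, ITGB7 and CD58, and the highest pair for ITGA5, ITGB2 and ICAM1. The same held for some flat or low genes (lowest for ITGB3, highest for ITGAL, ITGA1, ITGB4 and ICAM5), where values near the floor have no order. Several orders turned with the probe set. Another ICAM1 probe set put Nalm16 (5.30) below RS4;11 (5.59), and another ITGA1 one put both lines lowest. Another of the 7 for ITGB3 put Nalm16 highest at 5.72. These orders are descriptions, with no test, as the 2 lines were close over all genes. Nalm16 was the highest of all 13 lines for 9 of the 34 genes, most of them flat ones such as ITGA10, ITGA11, ITGAX, ITGB4 and ICAM5. No other line was highest for more than 5.

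Other adhesion genes were counted from lists around these receptors, by the same limma fit, and those called higher or lower passed at an adjusted p under 0.05. Beside these counts, 3.96% of all genes tested were higher in T-ALL and 3.67% in BCP-ALL, with a median difference of 0.03. The lists were not tested as sets. Of 40 tested genes of integrin activation and adhesion complexes, 2 were higher in T-ALL and 4 in BCP-ALL, with a median difference of -0.11. FYB1, an adaptor that links T-cell receptor signals to integrins, was 4.06 ± 0.10 (SD, n = 6) in BCP-ALL and 8.69 ± 0.58 (SD, n = 7) in T-ALL, and LPXN, a paxillin relative, was higher by 2.69 (SE 0.29). Vinculin (VCL), lower in T-ALL, had a difference of -2.0 (SE 0.33), and focal adhesion kinase (PTK2) one of -2.75 (SE 0.61). FYB1 was near the floor in every BCP-ALL line, so it passed the filter through the T-ALL lines alone. Of the genes named below, the same held for JAM3. CD22, CHST15 and LAMC1 were near the floor in every T-ALL line and passed through the BCP-ALL lines alone.

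Of 28 other leukocyte adhesion receptors tested, 4 were higher in T-ALL and 6 in BCP-ALL, with a median difference of 0.07. CD24, a mucin-like P-selectin ligand, was 11.4 ± 0.94 (SD, n = 6) in BCP-ALL and 4.78 ± 0.56 (SD, n = 7) in T-ALL. CD22, a sialic acid binding receptor that is also in the B-lineage marker list, was 10.8 ± 1.08 and 4.72 ± 0.12. JAM3, a junctional molecule, was at the floor in BCP-ALL (4.05 ± 0.06) and 8.89 ± 1.74 in T-ALL, and CD6, a receptor of ALCAM, was higher in T-ALL by 3.37 (SE 0.52).

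Of 16 tested genes for glycosylation and sulfation of selectin ligands, 0 were higher in T-ALL and 3 in BCP-ALL, with a median difference of -0.03. At an unadjusted p under 0.05, 2 were higher in T-ALL by limma, and 0 by the exact permutation test after adjustment. CHST15, which sulfates chondroitin and not the P-selectin ligand itself, was 9.30 ± 0.59 (SD, n = 6) in BCP-ALL and 4.14 ± 0.11 (SD, n = 7) in T-ALL. TPST1 and TPST2, the tyrosine sulfotransferases that modify PSGL-1, were lower in T-ALL, with differences of -1.59 (SE 0.26) and -0.84 (SE 0.21), the opposite direction to SELPLG. C1GALT1, which extends O-glycans, did not pass, with a difference of 1.26 (SE 0.53, limma adjusted p = 0.157).

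Of 15 tetraspanins, membrane proteins that gather integrins, 2 were higher in T-ALL and 4 in BCP-ALL, with a median difference of -0.72. CD9, a partner of the beta-1 integrins, was 9.98 ± 1.40 (SD, n = 6) in BCP-ALL and 4.80 ± 0.62 (SD, n = 7) in T-ALL. TSPAN14 and TSPAN13 were lower in T-ALL, with differences of -2.19 (SE 0.30) and -2.52 (SE 0.37), and TSPAN7 was higher by 4.60 (SE 0.75). Of 13 tested matrix ligands of integrins, 1 was higher in each lineage, with a median difference of -0.11. The laminin chain LAMC1 was 8.09 ± 0.68 (SD, n = 6) in BCP-ALL and 4.24 ± 0.13 (SD, n = 7) in T-ALL, and the fibrillin FBN1 was higher in T-ALL by 1.75 (SE 0.36).

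**Figure D5:**
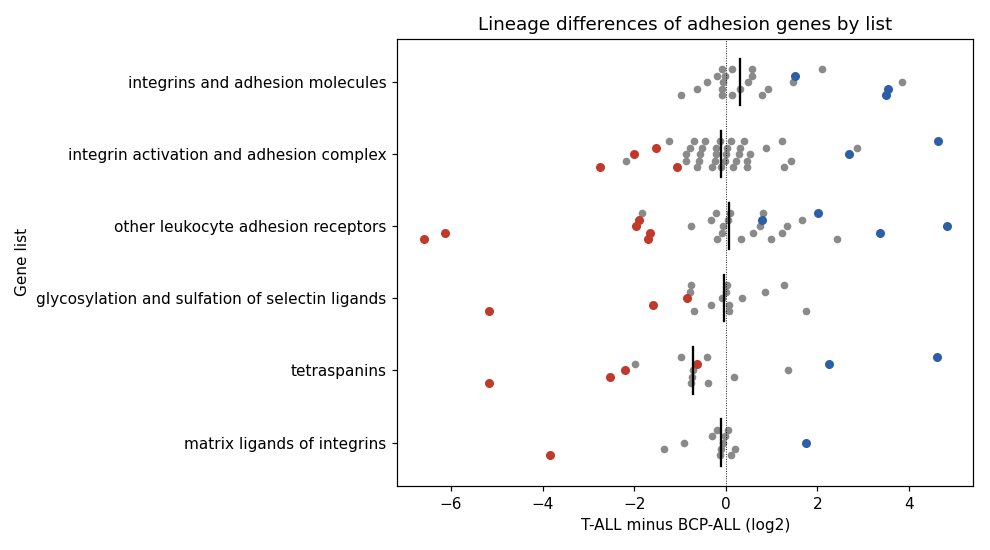
T-ALL minus BCP-ALL difference in log2 signal for each tested gene (dots) of the integrins and adhesion molecules and of 5 related lists, with the list median as a black bar. Blue and red mark genes higher in T-ALL or in BCP-ALL at an adjusted p under 0.05, beside 3.96% and 3.67% of all genes tested. The related lists hold more red than blue dots except the matrix ligands, with 1 of each, and were not tested as sets.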

How the data were processed

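RNA of 13 ALL cell lines was hybridized to 1 array each. The authors made log2 values with the iterPLIER+16 algorithm, in Affymetrix Expression Console per the labels, and deposited them as 1 table. The program version and the scaling between arrays are not given in the sources used here. Labels describe 30 h of culture and phenol-chloroform extraction, whereas the methods describe overnight culture and a spin-column kit.

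Of 42450 probe sets, 38125 were annotated to 1 gene symbol by the platform annotation, 1742 to several and 2583 to none, and only the first were used. Of several probe sets for a gene, the one of highest mean over the arrays stood for it. Genes above their array's median in at least 3 lines were tested, T-ALL against BCP-ALL, with limma 3.58.1 (lmFit and eBayes, R 4.3.3) and Benjamini-Hochberg adjustment at 0.05. With 1 array per line there is no repeat, and p-values measure the spread between lines. Correlations used two-sided exact permutation tests in Python 3.11.15 with scipy 1.17.1. Every listed gene could be named, and up to 4 genes with the smallest p from each related list and marker list. Markers near the floor were named after their values were seen. Promoters came from a table of RefSeq promoters, in which 24 of the 35 genes were matched. Steps were tested on simulated data. The members, lists and tests were chosen with earlier results of these data known. Alternatives covered the filter, normalization, probe set, floor, variance model, exact test, related lines and each line left out.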

Additional observations from a re-analysis of the deposited data

Results flagged for a closer look

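Of 68 combinations of gene and lineage, 11 (16.2%) had 1 line whose gap to its neighbor was large for the range of its group by Dixon's criterion, which chance flags in about 1 in 20 groups (5%). In 4 the gap was over 1 log2 unit. ITGA8 was 14.6 in 697, where the next BCP-ALL line was 5.38. ITGB5 was 7.91 in RS4;11, where the next was 4.91. ITGB7 was 7.56 in ALL-SIL, where the next T-ALL line was 6.08. ICAM2 was 8.32 in Nalm6, below the next BCP-ALL line at 9.88.

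The other 7 gaps were under 1 log2 unit. Nalm16 stood apart in BCP-ALL with ITGA11 at 6.12, ITGAX at 5.92 and SELP at 4.02. ALL-SIL was the low T-ALL line for ITGA4 (8.97) and ITGB3 (4.71). ITGB4 was high in CCRF-CEM at 5.37, and ICAM5 was low in HPB-ALL at 5.37.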

How the results depend on the processing

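ITGAL, ICAM3 and SELPLG were higher in T-ALL at an adjusted p under 0.05 in all 12 other settings and with each of the 13 lines left out, with adjusted p up to 0.0287, by the exact permutation test. No adhesion gene was higher in BCP-ALL in any of them. With the mean of a gene's probe sets 5 adhesion genes were called, all higher in T-ALL, as ITGB2 and PECAM1 were added, and with 1 line left out 3 to 4. The count over all genes was 958, and fell to 610 with P12-ICHIKAWA and TALL-1 averaged and to 472 with Nalm16 and Nalm30 averaged as well, each with fewer samples. It ran from 609 (without TALL-1) to 1223 (without REH) with 1 line left out, and was 629 without P12-ICHIKAWA. ITGB2 passed without Nalm16 (adjusted p = 0.0386) and without Nalm30 (0.0197), by limma, and PECAM1 with the probe set of largest SD (0.0498). Signs turned for genes near 0 that were not called. ITGA2 became 0.13 with the mean of its probe sets. Without Nalm16 and Nalm30, ITGA2 became 0.0359, ITGAX 0.00533 and ITGB4 0.0793, and ITGA6 became -0.0264 with both pairs averaged. With 1 line left out, ITGA2 ran from -0.129 to 0.105, ITGAX from -0.131 to 0.0218, ITGB3 from -0.255 to 0.0273, ITGB4 from -0.13 to 0.00621 and ICAM2 from -0.141 to 0.247. The cause of these changes was not tested. Genes above 5 in all lines numbered 10, against 20 at a limit of 4.5 and 5 at a limit of 6. The counts of the 5 related lists stayed within 1.5 times. No relation of partner subunits passed adjustment in any setting. No paired analysis was possible because the 2 lineages hold different lines, each measured on 1 array. The number of lines and the floor of the scale limit the precision, and values near 4 give no order.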
